A study of Mus musculus with 18 samples.

Results

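Transcript levels of the 9 genes that encode the subunits of AMPA and kainate receptors were examined in the spinal dorsal horn (DHSC) on the side of the injected paw in mice treated with formalin. The 4 AMPA receptor genes (Gria1 to Gria4) and the 5 kainate receptor genes (Grik1 to Grik5) were found by their gene symbol among the 55573 Ensembl genes of the deposited count table, and each symbol stood on 1 gene ID. All 9 passed the filter on low counts, which 24862 genes passed. The study sequenced polyA RNA of C57BL/6J mice of 8 to 12 weeks, collected 2 h after a hindpaw injection of 2% formalin, in 6 samples of males, 6 of F1/proestrus and 6 of F2/metestrus females. F1 and F2 are the names of female mice with a short and a long pause between the phases of formalin-evoked behavior, here taken in proestrus and metestrus respectively. Every group received formalin, so the values compare formalin-treated mice with each other and not with untreated tissue. The methods count n in animals, 6 for each group here, and call the samples biological replicates.

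Glutamate is the main excitatory transmitter of the spinal cord. Primary afferent fibers release it onto dorsal horn neurons, where AMPA receptors carry most of the fast synaptic current. AMPA receptors are tetramers of the subunits GluA1 to GluA4 (genes Gria1 to Gria4), and the presence of edited GluA2 in the tetramer keeps calcium from entering through the channel. Kainate receptors are tetramers of GluK1 to GluK5 (Grik1 to Grik5). GluK1, GluK2 and GluK3 can form channels alone, whereas GluK4 and GluK5 bind kainate with high affinity and need one of the other subunits to form a channel. GluK1 is the main kainate receptor subunit of small-diameter sensory neurons of the dorsal root ganglion.

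The pore loop codon at which editing exchanges glutamine for arginine (the Q/R site) is shown first, since it is the stretch of these genes on which calcium entry turns. Each line gives 45 bases of the coding sequence from GENCODE vM21 on GRCm38, 5′ to 3′ on the coding strand, with the codon of the site in capitals.
Gria1: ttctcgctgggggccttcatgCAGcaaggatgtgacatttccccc
Gria2: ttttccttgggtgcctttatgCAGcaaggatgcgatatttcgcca
Gria3: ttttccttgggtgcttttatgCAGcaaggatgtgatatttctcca
Gria4: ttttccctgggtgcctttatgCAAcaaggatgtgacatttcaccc
Grik1: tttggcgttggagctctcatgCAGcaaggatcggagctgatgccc
Grik2: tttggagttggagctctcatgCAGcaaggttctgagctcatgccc
Grik3: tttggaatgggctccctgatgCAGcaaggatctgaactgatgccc
Grik4: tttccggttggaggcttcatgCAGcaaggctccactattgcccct
Grik5: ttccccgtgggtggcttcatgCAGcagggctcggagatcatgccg
The genome encodes glutamine at this codon in all 9 genes, as CAA in Gria4 and as CAG in the other 8. In Gria2 the middle base of CAG is edited from adenosine to inosine in nearly all transcripts of the adult nervous system, and Grik1 and Grik2 are edited in part. Gene counts hold no base calls, so the edited share was not measured here.

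The windows of Gria2 and Gria3 shared 42 of 45 bases, and those of Grik1 and Grik2 shared 41. Over the whole coding sequence the 6 pairs of AMPA receptor genes were 65.7% to 70.4% identical, the 3 pairs among Grik1, Grik2 and Grik3 were 67.1% to 71.2% identical, and Grik4 and Grik5 were 69.8% identical. Between AMPA and kainate receptor genes the identity was 48.2% to 55.2%. Among the kainate receptor genes, Grik1 to Grik3 against Grik4 and Grik5 gave 51.0% to 55.7%.

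On GRCm38 the window of Gria1 lies at chr11:57243073-57243117 on the plus strand (exon 11 of 16), and that of Gria2 at chr3:80706890-80706934 on the minus strand (exon 11 of 16). The window of Gria3 lies at chrX:41610244-41610288 on the plus strand (exon 11 of 16), that of Gria4 at chr9:4464116-4464160 on the minus strand (exon 12 of 17). The windows of Grik4 (chr9:42547602-42547646, minus strand, exon 14 of 19) and Grik5 (chr7:25022476-25022520, minus strand, exon 15 of 20) also lie in a single coding exon. In Grik1, Grik2 and Grik3 the window spans a splice junction. Their codons lie at chr16:87940542-87940544 on the minus strand, chr10:49244329-49244331 on the minus strand and chr4:125691207-125691209 on the plus strand.

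All 9 are protein-coding genes, and their spans ran from 62498 bases for Grik5 (chr7:25009849-25072346) to 693934 bases for Grik2 (chr10:49094833-49788766). No annotated exon on the opposite strand overlapped an exon of theirs, and small RNA genes on the same strand took at most 0.99% of a gene's exon bases.

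The total count per sample lay between 73590509 and 125724156. At this depth the subunit genes were far above the floor of 3 counts, with 802 counts as the smallest value (Grik3) and 39084 as the largest (Gria2). Levels are given as CPM, which are counts scaled to a common library total after TMM normalization. By the library numbers that head the columns of counts, the samples fall into a first series (27 to 35, replicates 1 to 3 of each group) and a second series (188 to 196, replicates 4 to 6 of each group). Nothing in the sources says what separates the series, and samples of both were present in equal number in every group. Markers of dorsal horn neurons were present in all 18 samples, with 238 to 276 CPM of Slc17a6 (the vesicular glutamate transporter of these excitatory neurons) and 225 to 272 CPM of Gad1 (an enzyme of GABA synthesis). F1/proestrus sample 5 stood apart in markers of sensory ganglion neurons, and several results are given with and without it. Male sample 5 had the highest sum of Schwann cell markers (2162 CPM, against 590 to 1298 in the others). Its sum of motor and ventral markers was the lowest (26.8 CPM). In bulk tissue fewer cells of a type and less RNA per cell cannot be told apart.

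The 4 AMPA receptor genes together had between 600 and 810 CPM per sample, with a median of 707, and the 5 kainate receptor genes between 129 and 186, with a median of 143. The lowest AMPA and the highest kainate receptor sum were those of F1/proestrus sample 5, and in the other 17 samples the sums ran from 623 to 810 and from 129 to 155 CPM. Counts of different genes are comparable only per length, so CPM were divided by the kilobases of all annotated exons of a gene, merged. On this scale the order of the median levels over 18 samples was Gria1 (27.8 CPM per kb), Gria4 (23.9), Gria2 (18.9), Gria3 (9.36), Grik5 (6.92), Grik4 (4.40), Grik1 (3.61), Grik2 (2.80) and Grik3 (1.88). Gria1 exceeded Gria4 in 16 of 18 samples and Gria4 exceeded Gria2 in 18 of 18, but the ranges of both pairs overlapped. Gria2 lay above Gria3 without overlap of their ranges, and Grik5 above Grik4 likewise. Gria3 exceeded Grik5 in 17 of 18 samples and Grik4 exceeded Grik1 in 15 of 18, each with overlapping ranges.

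The order depended on which length was used, and the merged exons exceeded the coding sequence most in Gria2 and Grik2. The merged exons of Gria2 cover 15548 bases, its longest transcript 10371 and its coding sequence 2649. With merged exons Gria2 made up 23.5% of the summed AMPA receptor level and Gria1 34.3%. With the longest transcript they made up 27.1% and 28.8%, and with the coding length 42.0% and 23.2%, which placed Gria2 first. Gria4 took 30.7%, 27.3% and 21.8% under the same 3 lengths, and Gria3 11.5%, 16.8% and 13.0%. Gria3 was the lowest AMPA receptor gene under all 3 lengths.

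Among kainate receptor genes Grik5 was highest with merged exons (34.6% of the summed level) and with the longest transcript (33.5%), and Grik2 with the coding length (27.4%, against 24.1% for Grik5). Grik3 was lowest under all 3 lengths, with 9.56%, 7.28% and 12.2%. The summed kainate receptor level was 25.4% of the summed AMPA receptor level with merged exons and 19.6% with the coding length. Every AMPA receptor gene had a higher median than every kainate receptor gene under all 3 lengths.

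**Figure D1:**
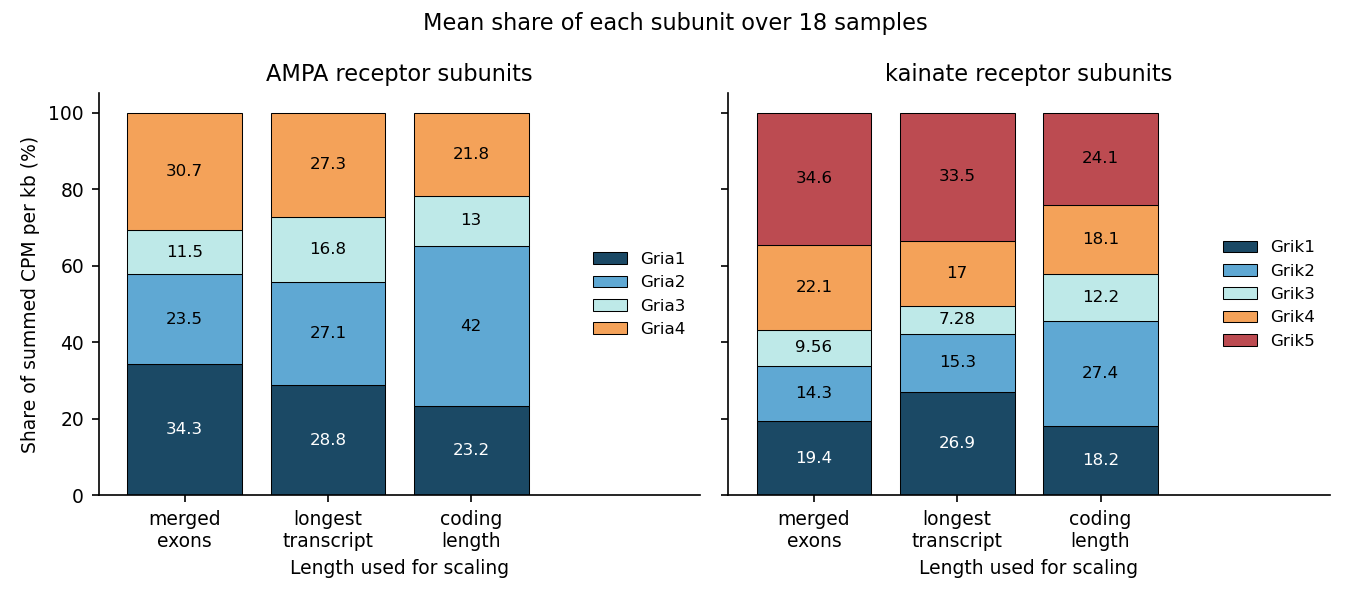
Stacked bars give the mean share of each subunit gene over 18 samples in the summed CPM per kb of its receptor family (y axis, percent), under 3 definitions of gene length (x axis). Gria1 was the largest AMPA share with merged exons (34.3%) and Gria2 with the coding length (42.0%), whereas Gria3 and Grik3 were the smallest of their families under all 3 lengths.

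The question of the study for the females was whether the DHSC transcriptome differs between F1/proestrus and F2/metestrus. When the 12 females were fitted with edgeR (quasi-likelihood test, FDR of 5%), 0 of the 9 subunit genes passed, as did 0 of 24042 genes in all (0%). DESeq2 called 0 of the 9 and 2 genes in all. At an unadjusted p under 0.05 there was 1 subunit gene, Grik1, beside 2.48% of all genes. No subunit gene separated the groups without overlap, which 27 genes did (0.112%).

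Gria1 encodes GluA1, a subunit inserted into synapses with activity. In F1/proestrus it had 127 CPM in the lowest sample, 168 in the median and 188 in the highest, and in F2/metestrus 144, 167 and 186. The range of F2/metestrus lay within that of F1/proestrus. The log2 fold change, with F1/proestrus as the reference, was 0.01 (SE 0.0926, adjusted p = 1.0, edgeR).

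Gria2 encodes GluA2, the subunit that limits calcium entry. Its lowest, median and highest values were 245, 304 and 348 CPM in F1/proestrus and 260, 300 and 308 CPM in F2/metestrus. The ranges overlapped, and the log2 fold change was -0.05 (SE 0.0771, adjusted p = 1.0, edgeR), or -0.10 (SE 0.0647) without F1/proestrus sample 5. For Gria3 the values were 79.5, 89.8 and 110 CPM against 84.4, 95.5 and 107 CPM, and for Gria4, a subunit of rapidly gating receptors, 144, 148 and 179 CPM against 148, 155 and 179 CPM. Their log2 fold changes were 0.05 and 0.04. The 95% intervals allowed a difference between -12.2% and 15.5% for Gria1, -13.9% and 8.14% for Gria2, -8.80% and 17.8% for Gria3, and -7.99% and 14.1% for Gria4. With the library series as a covariate the SE fell to 0.0572 for Gria1, 0.0528 for Gria2, 0.0431 for Gria3 and 0.0510 for Gria4, and none of the 4 passed (edgeR).

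Grik1 encodes GluK1. In F1/proestrus samples 1 to 6 it had 24.7, 27.4, 22.3, 24.0, 72.8 and 27.1 CPM. In F2/metestrus samples 1 to 6 it had 23.0, 21.9, 25.1, 21.9, 21.4 and 24.5 CPM. A single F1/proestrus library, sample 5, stood above all others, and the other 5 overlapped with F2/metestrus. The log2 fold change was -0.53 (SE 0.245, unadjusted p = 0.0476, adjusted p = 1.0, edgeR), and without F1/proestrus sample 5 it was -0.13 (SE 0.0712, unadjusted p = 0.0930).

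In the same F1/proestrus sample 5 the summed level of the 7 sensory ganglion markers that passed the filter, of 8 listed, was 583 CPM, against 26.8 to 51.0 CPM in the other 17. Scn10a, a sodium channel of nociceptors, had 125 CPM there and 0 to 0.153 CPM elsewhere. Avil had 132 CPM against 0.279 to 0.903, Scn11a 57.2 against 0 to 0.223, Trpv1, the capsaicin receptor, 32.3 against 0.0103 to 0.356, and the purinergic receptor gene P2rx3 30.0 against 0.664 to 1.63. Calca, which motor neurons express too, had 162 CPM against 6.34 to 33.5, and Th 44.5 against 11.7 to 25.5. Summed markers of motor and ventral neurons (331 CPM against 26.8 to 201), of meningeal fibroblasts (619 CPM against 267 to 587) and of neurons in general (8617 CPM against 6712 to 8427) were highest in this sample too. The part of these cells in the level of Grik1 was not tested. No other subunit gene had its highest value of the 18 samples there, and Gria1 (127 CPM) and Gria2 (245 CPM) had their lowest.

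**Figure D2:**
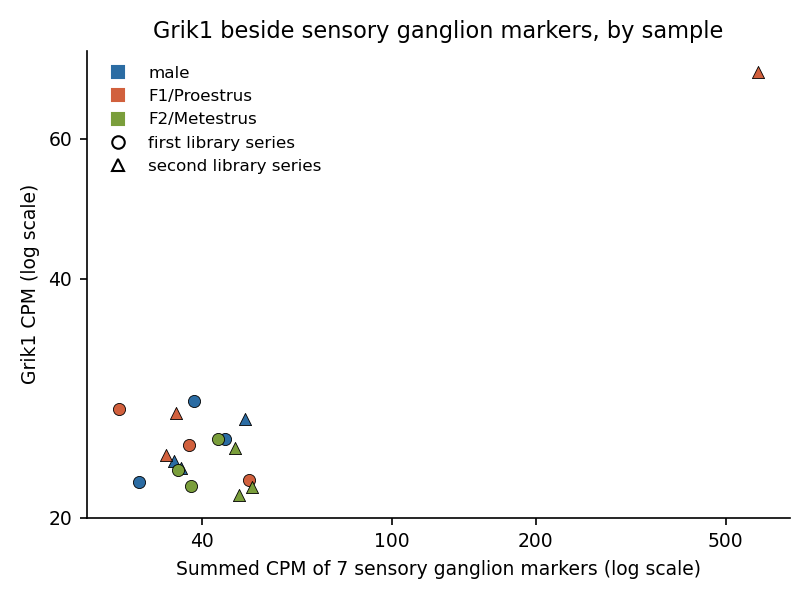
Each point is 1 of 18 samples, with the summed CPM of 7 sensory ganglion markers on the x axis and the CPM of Grik1 on the y axis, both on log scales, colored by group and shaped by library series. F1/proestrus sample 5 stands alone at 583 and 72.8 CPM, and the other 17 lie between 26.8 and 51.0 CPM of markers and between 21.4 and 28.0 CPM of Grik1.

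Grik2, the gene of GluK2, had 34.6 CPM in the lowest, 37.6 in the median and 44.5 in the highest F1/proestrus sample, and 35.2, 38.4 and 45.2 CPM in F2/metestrus. Grik3 (GluK3) had 12.8, 16.8 and 24.3 CPM against 12.8, 17.5 and 22.1 CPM. The genes of the high-affinity subunits had 23.9, 26.6 and 31.7 against 24.0, 26.9 and 29.8 CPM (Grik4) and 31.7, 35.5 and 40.7 against 30.0, 33.1 and 38.8 CPM (Grik5). Groups overlapped for all 4, and their log2 fold changes were 0.02, -0.0048, -0.03 and -0.09. The interval was widest for Grik3, from -22.5% to 28.2%, and for Grik2, Grik4 and Grik5 the bounds lay between -15.9% and 13.8%. These intervals are from the fit without the library series, between which Grik3 changed most of the subunit genes. The SE of Grik3 was 0.17 in this fit, 0.112 in the first series alone and 0.113 in the second alone.

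The second question of the study was whether the sexes differ, with the 12 females as 1 condition. Again 0 of the 9 subunit genes passed the FDR of 5% in edgeR, and 0 had an unadjusted p under 0.05. In all, 49 of 24862 genes passed (0.197%) and 2416 had an unadjusted p under 0.05 (9.72%). DESeq2 also called 0 of the 9. The sexes overlapped for every subunit gene, whereas they did not for 31 genes (0.125%).

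The smallest p among the subunits was that of Grik2. Males had 29.7 CPM in the lowest, 35.2 in the median and 42.0 in the highest sample, and the females 34.6 to 45.2 CPM. One male sample lay below all 12 females, and the other 5 were within the female range. The log2 fold change of males against females was -0.14 (SE 0.0702, unadjusted p = 0.0650, adjusted p = 0.533, edgeR), with an interval from -17.8% to 0.648%. Without F1/proestrus sample 5 it was -0.15 (SE 0.0699, unadjusted p = 0.0413, adjusted p = 0.502, edgeR). With the library series as a covariate the unadjusted p was 0.0157 for Grik2, 0.0251 for Gria4 and 0.0362 for Gria3 (edgeR). The adjusted p were 0.194, 0.233 and 0.270 (edgeR). The 9.72% of all genes given above belongs to the fit without this covariate, and the share in this fit is not given here. Some lists of cell type markers leaned in 1 direction between the sexes. All 8 motor and ventral markers were lower in males (median log2 fold change -0.52), with 0 past the FDR. Among these, Prph had 203 CPM in F1/proestrus sample 5 and 5.22 to 57.55 CPM elsewhere. All 5 red blood cell markers were lower (median -0.14), with 0 past the FDR. All 5 Schwann cell markers were higher (median 0.60), with 1 past the FDR, beside 0.197% of all genes. All 5 neutrophil markers tested were higher (median 1.37), with 2 past it. Of 10 excitatory dorsal horn markers 2 were lower, and 1, higher in males, passed the FDR. The part of cell composition in these values was not tested.

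For the AMPA receptor genes the lowest, median and highest male values were 138, 170 and 205 CPM (Gria1), 271, 288 and 301 CPM (Gria2), 68.1, 89.2 and 103 CPM (Gria3), and 127, 145 and 170 CPM (Gria4). The log2 fold changes were 0.02, -0.05, -0.09 and -0.10, with adjusted p between 0.619 and 0.938 (edgeR). Gria4 lay below all females in 3 of 6 males and Gria3 in 2 of 6. The lowest value of both genes (68.1 CPM for Gria3, 127 CPM for Gria4) was that of male sample 5. The intervals ran from -10.1% to 15.2% for Gria1, from -11.1% to 5.30% for Gria2, from -17.3% to 6.11% for Gria3 and from -15.3% to 2.55% for Gria4.

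For the other kainate receptor genes the male values were 22.2, 24.4 and 28.0 CPM (Grik1), 10.9, 17.2 and 22.8 CPM (Grik3), 20.8, 25.8 and 28.4 CPM (Grik4), and 35.4, 36.2 and 40.9 CPM (Grik5). Their log2 fold changes were -0.18, -0.03, -0.11 and 0.08, with adjusted p between 0.606 and 0.959 (edgeR). The value of Grik1 was 0.05 without F1/proestrus sample 5 and 0.10 for males against F2/metestrus alone, so its sign rested on that library.

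**Figure D3:**
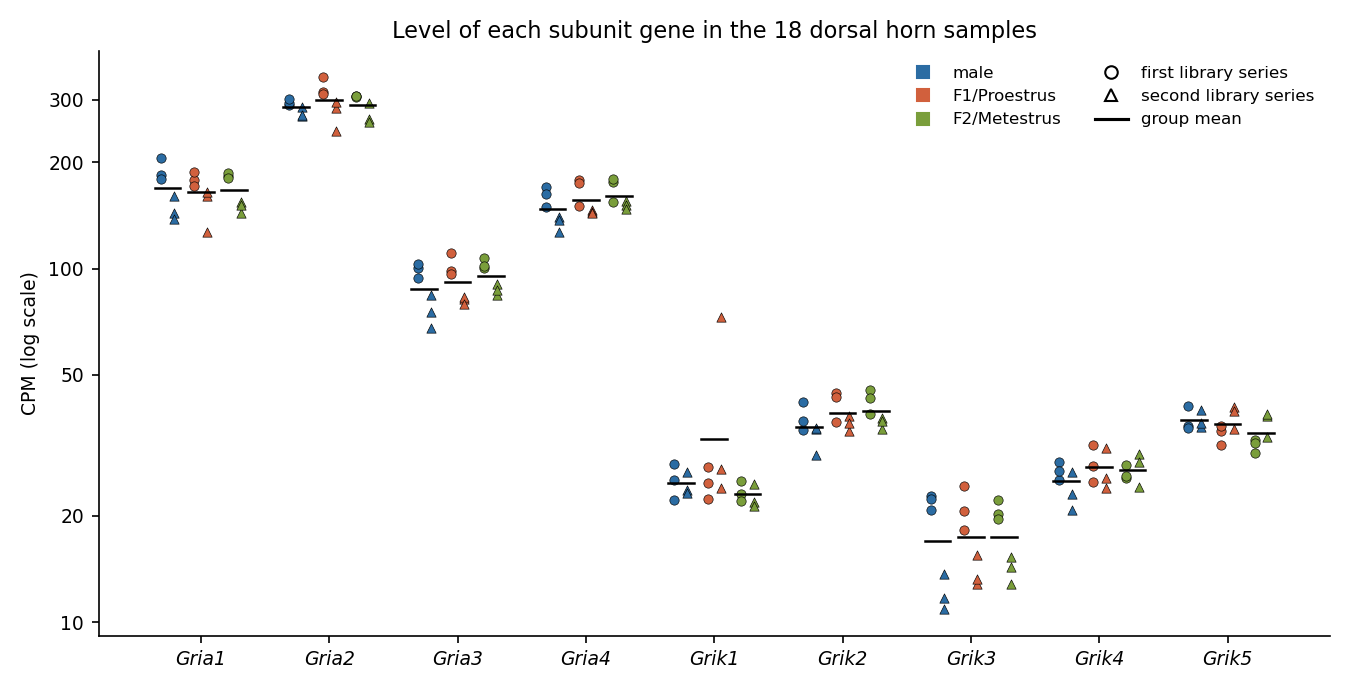
CPM of each of the 9 subunit genes (y axis, log scale) in 18 samples, by group (color) and library series (circles, first; triangles, second), with a bar at each group mean. The 3 groups overlap for every gene, and F1/proestrus sample 5 stands at 72.8 CPM for Grik1. Within every group the triangles lie below the circles for Gria1, Gria2, Gria3 and Grik3.

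Between the library series, tested with group in the model, 6 of the 9 subunit genes were lower in the second series and 0 were higher, where 15.2% of the 24038 genes tested were lower, 12.4% higher and 27.6% differed in either direction. All 4 AMPA receptor genes, Grik2 and Grik3 fell, and Grik1, Grik4 and Grik5 did not pass the test. Ranges of the series did not overlap for 3 subunit genes, Gria1, Gria3 and Grik3, against 4.43% of all genes.

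Grik3 had the largest change. In the first series it had 20.8, 22.8 and 22.3 CPM in the males, 20.7, 24.3 and 18.2 CPM in F1/proestrus and 22.1, 20.3 and 19.6 CPM in F2/metestrus. In the second series it had 10.9, 13.7 and 11.7 CPM in the males, 15.5, 12.8 and 13.2 CPM in F1/proestrus and 15.3, 12.8 and 14.3 CPM in F2/metestrus. The highest value of the second series, 15.5 CPM, lay below the lowest of the first, 18.2 CPM. The log2 fold change was -0.69 (SE 0.0696, adjusted p = 9.74e-07, edgeR), a level 38.2% lower with an interval from 31.6% to 44.1%, and Grik3 ranked at 122 of 24038 by p.

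Gria1 had 172 CPM in the lowest, 182 in the median and 205 in the highest sample of the first series, and 127, 152 and 164 CPM in the second. The log2 fold change was -0.32 (SE 0.0477, adjusted p = 5.64e-05, edgeR). Gria3 had 94.1, 101 and 110 CPM in the first series and 68.1, 83.3 and 90.5 CPM in the second, with a log2 fold change of -0.33 (SE 0.0421, adjusted p = 1.05e-05, edgeR). Both genes were lower in all 9 samples of the second series than in any of the first.

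Gria2 fell less, from 291, 308 and 348 CPM to 245, 273 and 296 CPM, with a log2 fold change of -0.19 (adjusted p = 0.00130, edgeR). Gria4 went from 149, 170 and 179 CPM to 127, 145 and 155 CPM (log2 fold change -0.23, adjusted p = 0.000525, edgeR). In both genes 7 of 9 samples of the second series lay below every sample of the first. Grik2 went from 35.0, 42.0 and 45.2 CPM to 29.7, 35.4 and 38.2 CPM (log2 fold change -0.22, adjusted p = 0.00474, edgeR), with 2 samples of the second series below the whole first series.

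The remaining kainate receptor genes did not pass the test. Grik1 had a log2 fold change of 0.20 (SE 0.172, adjusted p = 0.433, edgeR) and of -0.02 without F1/proestrus sample 5. Grik4 had 25.0, 26.8 and 31.7 CPM in the first and 20.8, 25.5 and 31.1 CPM in the second series, with a log2 fold change of -0.09 (adjusted p = 0.333, edgeR). Grik5 had a log2 fold change of 0.11 (SE 0.0487, adjusted p = 0.104, edgeR), and without F1/proestrus sample 5 it was 0.14 with an adjusted p of 0.0438. DESeq2 also placed Grik5 past the threshold, with an adjusted p of 0.0474.

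Within each group, 3 samples against 3, the direction of Gria1, Gria2, Gria3, Gria4, Grik2 and Grik3 was the same in all 3 groups. These are the genes called above on the same samples, so the agreement is no separate support. For Grik3 the log2 fold change was -0.86 in males, -0.61 in F1/proestrus and -0.55 in F2/metestrus. At this size 3 subunit genes passed the FDR in males, 0 in F1/proestrus and 2 in F2/metestrus, and 1198, 77 and 781 genes in all.

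**Figure D4:**
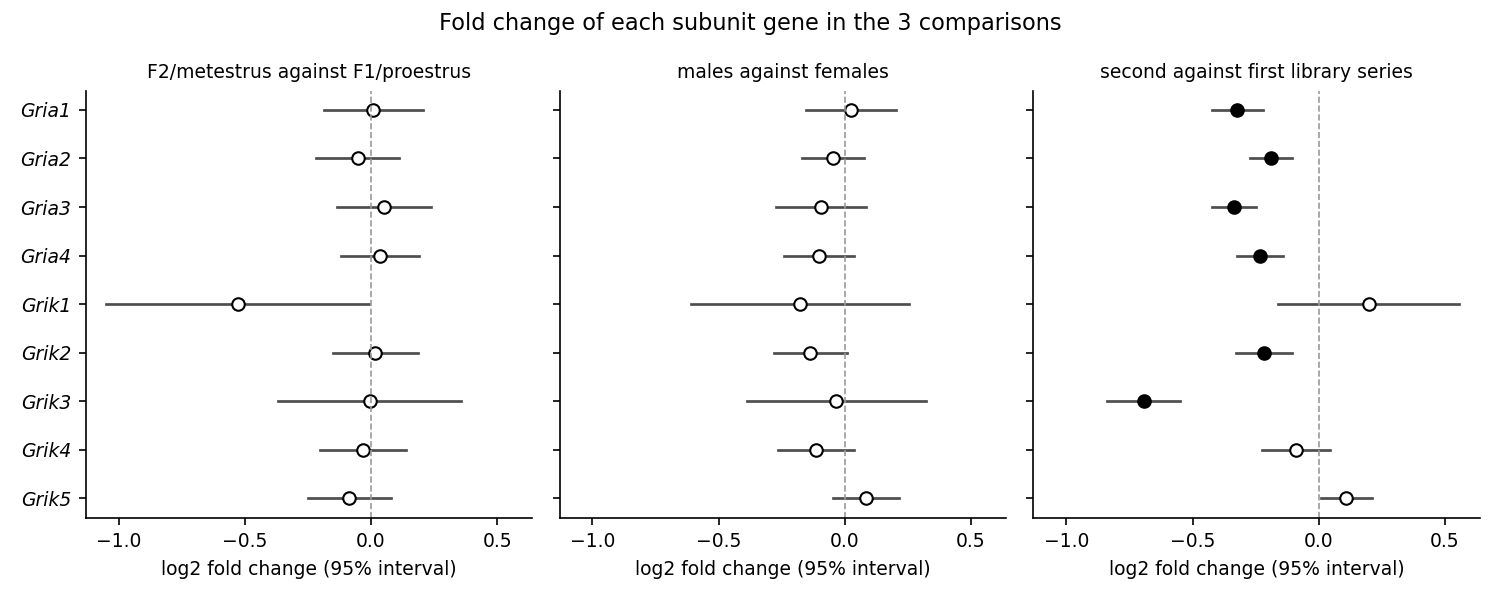
Log2 fold change (x axis) of the 9 subunit genes (y axis) in the 3 comparisons, with 95% intervals from edgeR and filled points for genes past an FDR of 5%. No point is filled for stage or sex, and 6 are filled for the library series, from -0.19 (Gria2) to -0.69 (Grik3).

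The 9 genes are long, and long genes as a class were lower in the second series. Genes were divided into 4 equal classes by merged exon length. In the class of the longest, 5437 bases or more, 38.1% of the genes were lower in the second series and the median log2 fold change was -0.12, against 5.73% to 9.34% lower in the other classes. This class holds 8 of the 9 subunit genes, and Grik5 is in the next. In the corresponding class of the longest spans, which holds all 9, 32.2% were lower. Gria1, Gria2, Gria3, Gria4, Grik2 and Grik3 lay below the median of their exon length class, and Grik1, Grik4 and Grik5 above that of theirs. The part of length in the change of a subunit gene was not tested.

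**Figure D5:**
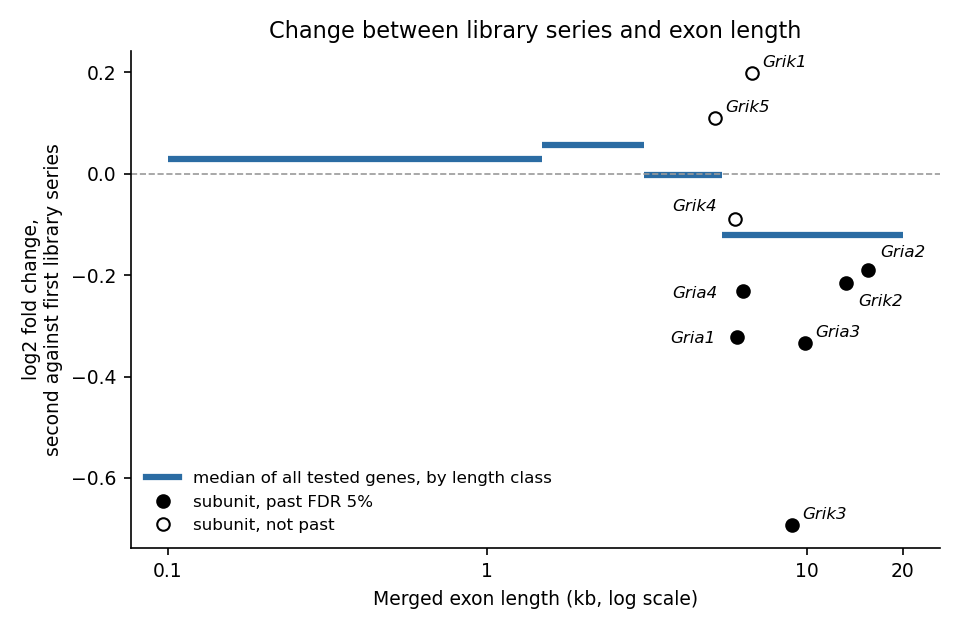
Log2 fold change between library series (y axis) against merged exon length in kb (x axis, log scale) for the 9 subunit genes, filled where past an FDR of 5%. Blue bars give the median of all tested genes in 4 equal classes of exon length, drawn between 0.1 and 20 kb, and the median is -0.12 in the longest class, below which 6 subunit genes lie.

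Cell type markers moved between the series as well, where 12.4% of all genes were higher and 15.2% lower. Of 8 pan-neuronal markers 3 were higher in the second series and 0 lower, among them Rbfox3, the gene of the neuronal nuclear protein NeuN (log2 fold change 0.17, adjusted p = 0.000514, edgeR). Of 10 markers of excitatory dorsal horn neurons 5 were higher and 0 lower, and of 8 inhibitory markers 2 were higher and 1 lower. The one that fell was Slc6a5, the neuronal glycine transporter, with a log2 fold change of -0.45. Of 8 oligodendrocyte precursor markers 4 were lower, which included Pdgfra, Cspg4 and Ptprz1, and 4 were higher, and of 6 endothelial markers 3 were lower. The part of cell composition in the change of the subunit genes was not tested.

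The male against female and the stage contrasts were also compared between the library series by an interaction term. No subunit gene passed the FDR in either (edgeR). The smallest unadjusted p was that of Grik3 for sex, where the log2 fold change was 0.06 in the first series and -0.21 in the second, a difference of -0.28 (SE 0.130, unadjusted p = 0.0429, adjusted p = 0.964).

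Partner genes of the receptors were taken from 4 lists with 52 genes, of which 51 were tested. Pick1, a scaffold protein that binds GluA2, was left out because its symbol stands on 2 gene IDs. Between F2/metestrus and F1/proestrus, and between the sexes, 0 of the 51 passed the FDR in edgeR and 0 in DESeq2, with 2 and 7 at an unadjusted p under 0.05 in edgeR, where 2.48% and 9.72% of all genes were. Between the library series 9 were higher and 14 lower, where 12.4% and 15.2% of all genes were.

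The list of AMPA receptor auxiliary proteins holds the TARPs (Cacng genes), the cornichons, the Shisa family and other proteins of the native receptor complex. In the second series 6 of 21 were higher and 2 lower (12.4% and 15.2% of all genes), and the list's median log2 fold change was 0.02, against -0.01 over all genes. Shisa6 fell from a mean of 16.6 to 13.5 CPM (log2 fold change -0.33, adjusted p = 0.000299, edgeR) and Shisa7 from 7.83 to 5.54 CPM (-0.52). Cnih2, a cornichon that slows channel closing, was higher (47.3 to 59.0 CPM, log2 fold change 0.30), as was Prrt1 (8.60 to 10.9 CPM, 0.32).

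Cnih2 also had the smallest p of its list between the sexes. It had a mean of 62.1 CPM in males, 49.4 in F1/proestrus and 48.0 in F2/metestrus. The log2 fold change was 0.35 (SE 0.0968, unadjusted p = 0.00159) and missed the FDR (adjusted p = 0.207, edgeR). Its homolog Cnih3 came next, with 0.26 (adjusted p = 0.333). Between the female groups the smallest p values of the list were those of Cacng7 (log2 fold change -0.24) and Olfm3 (0.11), both with an adjusted p of 1.0.

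Of 4 kainate receptor partners 0 were higher and 2 lower in the second series (12.4% and 15.2% of all genes). The 2 were Neto2 and Neto1, auxiliary proteins that slow kainate receptor gating. Their log2 fold changes were -0.29 (adjusted p = 0.0147, edgeR) and -0.17 (adjusted p = 0.0313, edgeR). C1ql2 and C1ql3, synaptic organizers that bind kainate receptors, did not pass. Between the sexes C1ql2 had a log2 fold change of -0.13 and C1ql3 of 0.11, and between the female groups C1ql3 had 0.08 and Neto2 0.05, all with an adjusted p of 0.702 or more.

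Of 23 scaffold and trafficking genes tested 3 were higher and 7 lower in the second series (12.4% and 15.2% of all genes), with a median log2 fold change of -0.05. Dlg2, the gene of the postsynaptic scaffold PSD-93, fell from 102 to 74.7 CPM (log2 fold change -0.47, adjusted p = 4.82e-06, edgeR). Akap5 (-0.33), which anchors kinases at the receptor, Epb41l1 (-0.21), which links GluA1 to the cytoskeleton, and the scaffold gene Dlg3 (-0.18) fell too. Between the sexes Nptx2, a pentraxin that clusters AMPA receptors, had the smallest p (log2 fold change 0.36, adjusted p = 0.310), followed by Grip2 (0.16). Between the female groups it was Grip1 (-0.17) and Nptx2 (-0.32), both with an adjusted p of 1.0.

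The 3 genes of the RNA-editing family were all lower in the second series, as were 15.2% of all genes. Adarb1, whose enzyme edits the Q/R codon of Gria2 shown above, had a mean of 174 CPM in the first and 121 CPM in the second series, with a log2 fold change of -0.55 (SE 0.0667, adjusted p = 6.75e-06, edgeR). Adar fell by 0.27 and Adarb2 by 0.24 on the log2 scale. Between the sexes and between the female groups none of the 3 passed, with log2 fold changes of -0.10 and 0.02 for Adar and of -0.11 and -0.05 for Adarb2.

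The subunit genes did not vary as a block among the samples of a group. Correlations were taken over 18 samples of log2 CPM after the mean of each group within each series had been subtracted, and they are descriptions, since the samples share library and depth effects. Among the AMPA receptor genes r was 0.64 for Gria1 with Gria2 and 0.58 for Gria3 with Gria4, but -0.47 for Gria1 with Gria3. Without F1/proestrus sample 5 the first of these was 0.198, and the others were 0.584 and -0.58. Grik5 ran with Gria1 (r = 0.694, 0.598 without that sample) and against Gria3 (-0.661 and -0.686), and Grik2 ran against Grik4 (-0.648 and -0.638). The r of Grik1 with Gria1 turned from -0.625 to 0.418, and that with Gria2 from -0.517 to 0.724, when that sample was left out.

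The genes most like each subunit gene by the same measure were sought among 17763 genes with a mean of at least 1 CPM. They were Mapk9, Ncam2 and Scaf11 for Gria4 (r = 0.938, 0.909 and 0.894), and the same 3 stood first without F1/proestrus sample 5. For Grik5 they were Zfp513, Slc1a6 and Mboat7 (0.941, 0.940 and 0.923), again the same 3 without that sample. Grik1 was most like Prkcd (0.978), Amigo3 (0.969) and Bcam (0.952), all of which gave way to Tspyl2, Otof and Fubp3 without it. The highest r was 0.916 for Gria1 (Pdxk, then Nmnat2 and AC160411.1), 0.862 for Gria2 (Tsnax, then Rasd2 and Zfp939) and 0.889 for Gria3 (Ppip5k2, then 1500004A13Rik and Ano4). It was 0.903 for Grik2 (Gm10197, then Kctd12 and Ankrd28), 0.916 for Grik3 (Amotl1, then Cadm4 and Prickle2) and 0.955 for Grik4 (Map6, then Gm5422 and Tubb5). Of these, Zfp939, Ppip5k2, Kctd12 and Amotl1 remained among the first 3 of their gene without F1/proestrus sample 5. Each r named here was picked as one of the highest of 17763 over 18 samples. Values of this size can also be reached by unrelated genes, and no relation was tested.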

How the data were processed

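RNA-sequencing of 18 DHSC samples was analyzed (6 per group, groups taken from the sample titles). The authors deposited raw counts per Ensembl gene, from reads uniquely mapped to mm10 with Subread and counted on exons with featureCounts. Subread 2.0.3 is named in the submitters' processing notes and another version in the methods. The strand setting is not given in the sources used here. For library preparation the methods name a TruSeq kit and the labels SMART-Seq amplification of 4 ng RNA with Nextera XT. A further table of the authors holds their own fold changes and p-values for 1 comparison, of which only the gene symbols were used.

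Counts were filtered with filterByExpr (minimum count 10, minimum total 15), normalized with TMM and tested with edgeR 4.0.16 (R 4.3.3, quasi-likelihood test, Benjamini-Hochberg adjustment over all genes, FDR 5%). The 12 females were fitted alone for the stage, all 18 samples for the sex, and all 18 with group as covariate for the library series. Alternatives were DESeq2 1.42.0, limma voom 3.58.1, size factors, other filters, the library series as covariate, each series or group alone, a replicate block and leaving out each sample. The fits were tested on simulated data. Lengths and sequences are from GENCODE vM21, which held 55394 of 55573 gene IDs. No 2 libraries of a group agreed within counting noise. One list of genes is not reported here. The subunit genes and all lists were chosen with earlier results of these data known. Named are all subunit genes, 3 most similar genes of each, and up to 4 genes of a list past the FDR or, where none passed, the 2 with the smallest p. Markers of F1/proestrus sample 5 and of male sample 5, and values without F1/proestrus sample 5 for correlations, were chosen after seeing the data. Floors and intervals cover counting error or the spread between samples only.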

Additional observations from a re-analysis of the deposited data

Results flagged for a closer look

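Grik1 in F1/proestrus sample 5 had 72.8 CPM, and its gap to the next sample was too large a part of the range of its group of 6 by Dixon's test. It was the 1 value singled out among 27 sets of 6 samples (9 genes in 3 groups), of which chance alone marks about 1 in 20. The same library held 583 CPM of summed sensory ganglion markers, and the part of these cells in the value was not tested.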

How the results depend on the processing

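The 0 calls among the subunit genes for stage and for sex stood under all 10 and 12 alternatives and when any sample was left out. Of all genes, DESeq2 called 2 between the female groups. Between the sexes, where 49 passed, it called 159, the library series as covariate gave 134, at least 10 counts in every sample 31, the first and the second series alone 16 and 13, and males against F1/proestrus or F2/metestrus alone 13 and 22. Leaving out 1 sample gave 25 (without male sample 5, and 30 without male sample 4) to 77 (without F1/proestrus sample 5). The replicate block gave 148 genes and 0 subunit genes between the sexes and 0 genes between the female groups. Same-numbered samples correlated by -0.105 to 0.228 in their deviations from the group means, with medians near 0 within a series. No pairing by number was seen in these values, which cannot exclude that same-numbered samples were handled together.

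For the library series the subunit genes called were 3, 0 and 2 (of 1198, 77 and 781 genes) in males, F1/proestrus and F2/metestrus alone, where fewer samples entered the fit. They were 6 to 7 when 1 sample was left out, of 5832 to 6913 genes, and the seventh was Grik5, also called by DESeq2.

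Signs turned only for subunit genes that did not pass. For stage these were, in the second series alone, Gria1 (-0.0078), Grik3 (0.033) and Grik4 (0.030), and Grik3 with voom (0.0097), with the series as covariate (0.00037) and with the replicate block (0.0047). For sex they were Gria1 (-0.021), Gria2 (0.015) and Grik5 (-0.0099) in the second series, Grik1 (0.046) and Grik3 (0.056) in the first, and Grik1 against F2/metestrus alone (0.098). For the library series they were Grik1 (-0.042) and Grik5 (-0.0068) in males and Grik1 (-0.050) and Grik4 (0.049) in F2/metestrus. The cause was not tested. Leaving out 1 sample gave ranges across 0 for stage in Gria1 (-0.054 to 0.053), Grik2 (-0.025 to 0.059), Grik3 (-0.086 to 0.12) and Grik4 (-0.067 to 0.012), for sex in Gria1 (-0.047 to 0.064), Grik1 (-0.22 to 0.050) and Grik3 (-0.14 to 0.057), and for the library series in Grik1 (-0.021 to 0.26).

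Shares within a family moved with the length used, by construction. With the longest transcript they were 28.8%, 27.1%, 16.8% and 27.3% for Gria1 to Gria4, 26.9% for Grik1 and 17.0% for Grik4. With the coding length they were 23.2%, 42.0%, 13.0% and 21.8% for Gria1 to Gria4, and 27.4%, 12.2%, 18.1% and 24.1% for Grik2 to Grik5, and the kainate receptor sum was 19.6% of the AMPA receptor sum. No subunit gene had fewer than 802 counts in a sample. The SE of the stage contrast depended on the model: for Gria1 it was 0.0926, 0.0572 with the series as covariate and 0.0426 with the replicate block, and for Gria3 0.0865, 0.0431 and 0.0377.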
